A study of Mus musculus with 6 samples.

Results

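Icam1, Icam2, Vcam1, Sele, Selp and Selplg are 6 genes of the adhesion molecules that bring leukocytes from the blood onto the vessel wall, and they were taken by gene name from the 30914 genes of the FPKM table. All 6 had a row of their own. RNA was sequenced from hearts of wild-type male C57BL/6J mice that were 8 weeks old at the start, with 3 mice in each group. The Ang II group received angiotensin II (Ang II), a peptide hormone that raises blood pressure and enlarges the heart, at 1 μg/kg/min from osmotic pumps for 4 weeks. The Ang II + Tec group received the same infusion and, for the last 2 weeks, the flavonoid tectochrysin (Tec) at 5 mg/kg. The sequencing asked through which mechanism Tec acts on the heart under Ang II, and inflammation was among the processes examined. Mice without Ang II were not analysed here.

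Leukocytes leave the blood in steps. Selectins on the activated endothelium catch fast-moving leukocytes through a glycoprotein ligand and let them roll, and adhesion molecules of the immunoglobulin family then hold them through integrins, after which the cells cross the wall. Resting endothelium carries Icam2 at all times, while inflammatory cytokines and NF-κB, and in vessels also Ang II, are known to induce Icam1, Vcam1 and Sele.

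FPKM are fragments divided by the length of the transcript and by the total of mapped fragments, so that levels of different genes can be set side by side. Of the 6 genes, 4 reached 0.5 FPKM in at least 3 of the 6 libraries and entered the limma fit of 13089 genes on the scale of log2(FPKM + 1), while Sele and Selp lay under that limit. None of the 4 was called at an adjusted p under 0.05 (limma, Benjamini-Hochberg over all genes tested), a limit that 24 of the 13089 genes passed (0.183%). None of the 4 had an unadjusted p under 0.05 in that fit, against 16.5% of all genes tested that were lower with Tec at that limit. The mean of all 4 was lower in the Ang II + Tec group, as was that of 80.0% of all genes tested. The median log2 difference over all genes tested was -0.17 with FPKM as deposited and 0.00 after scaling by the median of ratios, so that the differences of the members are also given relative to the median gene. Mitochondrially encoded RNA held 41.3%, 40.1% and 48.9% of the summed FPKM with Ang II alone and 51.3%, 49.6% and 52.5% with Tec, so that every treated heart was higher and Ang II replicate 3 was nearest to them. Setting the sums outside the mitochondrial genome equal gave a median of -0.14. With this scaling the log2 difference was -0.14 for Icam1, -0.15 for Icam2, -0.65 for Vcam1 and -0.42 for Selplg. For the members under the limit it was -0.23 (Sele) and -0.31 (Selp). The part of the mitochondrial share in the members' values was not tested beyond this scaling.

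The libraries stood apart in ways that the groups do not give. Markers of the atria were abundant in Ang II replicates 1 and 2 and in Ang II + Tec replicate 2, and the summed FPKM of the 4 atrial markers was 6204, 10250 and 256 in Ang II replicates 1 to 3 and 906, 5032 and 128 in Ang II + Tec replicates 1 to 3. The most abundant atrial gene was Nppa, and Myl7, the light chain of atrial myosin, was listed at 0 in Ang II replicate 3 and Ang II + Tec replicate 1. The 5 fibroblast markers, led by Dcn, summed to 428, 531 and 115 FPKM with Ang II alone and to 101, 167 and 115 FPKM with Tec. Ang II replicate 3 therefore lay near the treated hearts in fibroblast markers and had few atrial transcripts. The 4 erythroid markers, led by Hbb-bs, summed to 646, 1015 and 247 FPKM under Ang II alone and to 525, 376 and 147 FPKM when Tec was added, with 4 tested and 0 called. The 5 cardiomyocyte markers, led by Actc1, summed to 7302, 6055 and 6512 FPKM in Ang II hearts and to 6385, 6370 and 5603 FPKM in hearts also given Tec, as the labelled tissue has it. The 5 pericyte and smooth muscle markers, led by Rgs5, summed to between 126 and 160 FPKM in all hearts, and the 4 epicardial and mesothelial markers, led by Upk3b, to between 0.580 and 14.6 FPKM, with 0 called in either list. The parts of residual blood and of fibroblasts in the results that follow, that of Vcam1 among them, were not tested. For tissue makeup a fit with atrial transcripts as a block and levels relative to endothelial and leukocyte markers are given. With that block, chosen after seeing the data, the log2 difference was -0.003 for Icam1, -0.13 for Icam2 and -0.34 for Selplg, with 0 members called.

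Icam2, the constitutive ligand of the leukocyte integrin LFA-1, had the highest mean FPKM of the 6 genes. Its FPKM was 6.72, 7.57 and 6.54 with Ang II alone and 6.85, 6.67 and 4.70 with Tec. The groups overlapped, and Ang II + Tec replicate 3 alone was below all other hearts. The means were 6.94 ± 0.550 and 6.07 ± 1.19 FPKM (SD, n = 3 each). The log2 difference was -0.18 (SE 0.153, 95% confidence interval -0.54 to 0.18) with an adjusted p of 0.494 (limma). Relative to the median gene the difference was -0.01, and after scaling by the median of ratios it was 0.02, with the opposite sign. Leaving out 1 library gave -0.26 to -0.03, the latter without Ang II + Tec replicate 3.

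Icam1, the cytokine-inducible ligand of LFA-1 and Mac-1, measured 2.32, 2.78 and 1.47 FPKM under Ang II alone and 1.63, 2.42 and 1.47 FPKM when Tec was added. Ang II replicate 3 and Ang II + Tec replicate 3 had the same value, and replicate 2 was the highest of either group. The groups overlapped over nearly their whole range. The means were 2.19 ± 0.665 and 1.84 ± 0.509 FPKM (SD, n = 3 each), and the log2 difference was -0.16 (SE 0.198, 95% confidence interval -0.62 to 0.30; adjusted p of 0.632, limma). Relative to the median gene it was 0.01. After quantile normalization the difference was 0.02, with the opposite sign. Leaving out Ang II replicate 3 gave -0.33 and leaving out Ang II replicate 2 gave -0.03, the ends of the range over libraries. Icam1 is among the inflammatory genes that the study singled out from these same samples, so its direction is not independent evidence.

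Vcam1, the ligand of the integrin VLA-4 on monocytes and lymphocytes, varied most of the 4 tested members between hearts. Its FPKM was 5.50, 9.0 and 1.95 in Ang II hearts and 1.80, 3.33 and 2.88 in hearts also given Tec. Ang II replicates 1 and 2 were above every treated heart, while Ang II replicate 3 was below all but Ang II + Tec replicate 1. The highest heart had 5.0 times the FPKM of the lowest. The group means were 5.48 ± 3.53 and 2.67 ± 0.786 FPKM (SD, n = 3 each), so the treated mean was 48.7% of the Ang II mean. The log2 difference was -0.68 (SE 0.419, 95% confidence interval -1.66 to 0.31), with an adjusted p of 0.380 (limma), and it did not exceed the spread between mice. Relative to the median gene it was -0.51.

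The Vcam1 value depended on Ang II replicate 3 and Ang II replicate 2. Without Ang II replicate 3 the log2 difference was -1.16 and passed the threshold (adjusted p of 0.0149, limma), in a fit in which 26.2% of all genes tested were called lower with Tec. Without Ang II replicate 2 it was -0.28 (adjusted p of 0.795, limma). Among the 3 hearts with atrial transcripts (Myl7 of at least 10 FPKM), Vcam1 averaged 7.25 FPKM in the 2 Ang II hearts and was 3.33 FPKM in the 1 treated heart. Among the 3 hearts without them, it was 1.95 FPKM in the 1 Ang II heart and averaged 2.34 FPKM in the 2 treated hearts. The Ang II heart lay between these 2 (1.80 and 2.88 FPKM), so no order of the groups can be read there. Icam1 was also higher on average in these treated hearts than in that Ang II heart, and Icam2, Sele, Selp and Selplg were lower. With atrial transcripts as a block, chosen after seeing the data, the Vcam1 difference was -0.37 (adjusted p of 0.495, limma).

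Sele (E-selectin) is made by endothelium only after activation. Its FPKM was 0.33, 0.35 and 0.23 with Ang II alone and 0.15, 0.17 and 0 with Tec. Every treated heart was below every Ang II heart, and Ang II + Tec replicate 3 was listed at 0. Of the 2 members under the limit for testing, Sele was the 1 whose groups did not overlap, and among the genes under that limit with a value above 0 the groups did not overlap, lower with Tec, for 5.17%. Among those of them with a mean of at least 0.1 FPKM the share was 12.0%. The means were 0.303 ± 0.0643 and 0.107 ± 0.0929 FPKM (SD, n = 3 each), and the log2 difference was -0.24, with a two-sided exact permutation p of 0.1, the smallest that 3 mice against 3 allow. With a pseudocount of 0.1 in place of 1 the log2 difference was -1.08, since the scale understates changes of low values.

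The depth behind the Sele values was small. With the longest annotated transcript as its length, the FPKM correspond to about 15.4, 16.6 and 10.7 fragments under Ang II alone and to about 6.7, 10.0 and 0 fragments when Tec was added. Counting error therefore adds to the spread between mice, and a value of 0 does not show that the transcript was absent.

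Selp (P-selectin) is stored in granules of endothelial cells and platelets and moved to their surface upon activation. Its FPKM was 0.37, 0.55 and 0.14 in Ang II hearts and 0.03, 0.14 and 0.06 in hearts also given Tec. Ang II replicate 3 and Ang II + Tec replicate 2 shared the value at which the groups met, and the other treated hearts were lower than every Ang II heart. The means were 0.353 ± 0.206 and 0.0767 ± 0.0569 FPKM (SD, n = 3 each). The log2 difference was -0.32 with a two-sided exact permutation p of 0.2, and -1.29 with a pseudocount of 0.1. After scaling by the median of ratios the tie was broken, and the difference of -0.28 had a two-sided exact permutation p of 0.1, the smallest possible. About 20.4, 30.7 and 7.7 fragments stood behind the values of the Ang II group, and about 1.6, 9.7 and 4.2 fragments behind those of the Ang II + Tec group. The 5 platelet markers, led by Pf4, summed to 14.4, 17.4 and 11.3 FPKM with Ang II alone and to 8.08, 10.5 and 9.87 FPKM with Tec, of which 2 were tested and 0 called. The part of platelets in the Selp values was not tested.

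Selplg (PSGL-1) is the ligand through which leukocytes bind the selectins, and it is made mainly by the arriving cells. Its FPKM was 1.20, 1.95 and 0.67 under Ang II alone and 0.80, 0.64 and 0.47 when Tec was added. Ang II replicates 1 and 2 were above the treated hearts, while Ang II replicate 3 was below Ang II + Tec replicate 1. The means were 1.27 ± 0.643 and 0.637 ± 0.165 FPKM (SD, n = 3 each), so the treated mean was 50.0% of the Ang II mean. The log2 difference was -0.44 (SE 0.207, 95% confidence interval -0.93 to 0.05), with an adjusted p of 0.294 (limma). Relative to the median gene it was -0.27, and with a pseudocount of 0.1 it was -0.81 (adjusted p of 0.293, limma). Without Ang II replicate 3 it was -0.64 and passed the threshold (adjusted p of 0.0253, limma), in the fit in which 26.2% of all genes tested were called lower, and without Ang II replicate 2 it was -0.23 (adjusted p of 0.685, limma). In RNA from whole tissue, fewer cells of a type and less RNA per cell cannot be told apart from the level of a gene alone.

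Weighting the libraries by how well each followed the fit moved some members past the threshold. With limma's arrayWeights, Selplg was called (log2 difference -0.77, adjusted p of 0.0323). In that fit 25.0% of all genes tested were called lower with Tec. There the log2 difference was -0.44 for Icam1, -0.44 for Icam2 and -1.06 for Vcam1. Their adjusted p were 0.0824, 0.134 and 0.0556 (limma), so these were not called. That estimate of the weights stopped before it converged, and with weights estimated gene by gene, chosen after seeing the data, Icam1, Vcam1 and Selplg were called, as were 54.6% of all genes tested as lower with Tec. The weightings did not single out the same library. Ang II replicate 1 had the lowest weight with arrayWeights, at 0.118, and the highest gene by gene, at 4.47, where the lowest was that of Ang II replicate 3, at 0.191.

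**Figure D1:**
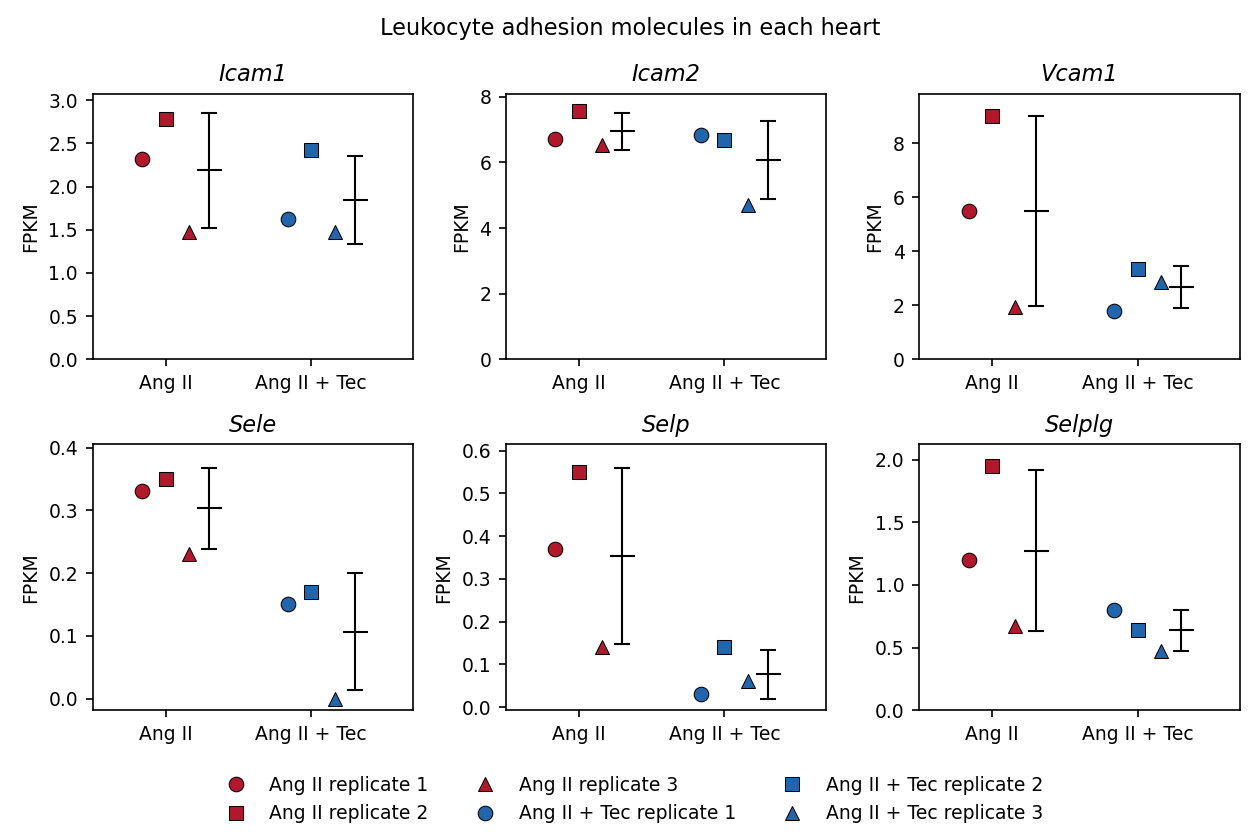
FPKM of the 6 adhesion molecule genes in each heart, with the Ang II group in red and the Ang II + Tec group in blue; symbols mark the replicate, and the bar beside each group gives the mean ± SD of its 3 hearts. Each gene has its own linear axis from about 0; Ang II replicate 2 (red square) is the highest heart in every panel, and the groups are separate in the panel of Sele alone.

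The order of the levels was Icam2, Vcam1, Icam1, Selplg, Selp and Sele, with means over the 6 hearts of 6.51, 4.08, 2.02, 0.955, 0.215 and 0.205 FPKM. Icam2 exceeded Vcam1 in 5 of 6 hearts, with Ang II replicate 2 the exception, and the mean difference of 2.43 FPKM was about as large as its SD of 2.41 FPKM. Vcam1 exceeded Icam1 in 6 of 6 hearts, yet the mean difference of 2.06 FPKM was within its SD of 2.30 FPKM. The steps from Icam1 to Selplg (1.06 FPKM, SD 0.374) and from Selplg to Selp (0.740 FPKM, SD 0.362) exceeded their spread, with the same order in all 6 hearts. Selp and Sele did not differ beyond their spread, and Selp was the higher in 3 of 6 hearts. By group means Selp was the higher with Ang II alone (0.353 and 0.303 FPKM) and the lower with Tec (0.0767 and 0.107 FPKM).

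Across the hearts, Ang II replicate 2 had the highest value of all 6 genes. It was also the highest library for 44.0% of all genes tested. Ang II + Tec replicate 3 had the lowest value of Icam2, Sele and Selplg, and Ang II + Tec replicate 1 that of Vcam1 and Selp.

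Markers of the endothelium, which carries Icam1, Icam2, Vcam1, Sele and Selp, were nearly level across the hearts. The 8 endothelial markers, led by Egfl7, summed to 112, 119 and 110 FPKM in Ang II hearts and to 103, 105 and 95.5 FPKM in hearts also given Tec. Every treated heart lay below every Ang II heart in this sum of FPKM as deposited, by a small margin. All 8 were tested and 0 were called, 7 being lower and 1 higher with Tec, and their median log2 difference was -0.15, beside -0.17 over all genes tested, and 0.05, of opposite sign, after scaling by the median of ratios. The groups did not overlap for 2 of the 8, which were lower with Tec and had an unadjusted p under 0.05 (limma), while of all genes tested 18.9% were lower with no overlap and 16.5% were lower at that p. Egfl7, a secreted protein of endothelial cells, was 1 of these and stood at 28.0, 28.2 and 26.4 FPKM in Ang II hearts and 24.7, 21.2 and 20.8 FPKM in hearts also given Tec (adjusted p of 0.242, limma). Cdh5 (VE-cadherin), which seals endothelial junctions, measured 20.2, 20.0 and 22.2 FPKM with Ang II alone and 23.3, 21.4 and 19.5 FPKM with Tec. It was the marker with a higher mean in treated hearts, and its groups overlapped.

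Each member was then set against the mean log2(FPKM + 1) of the 8 endothelial markers. On this scale low genes move less with the scaling of a library than the markers do. Icam1 minus the markers was -2.04 ± 0.248 under Ang II alone and -2.02 ± 0.185 when Tec was added (SD, n = 3 each; exact permutation p of 0.9, two-sided). Icam2 minus the markers was -0.70 ± 0.035 and -0.71 ± 0.185 (SD, n = 3 each; exact permutation p of 1.0, two-sided). Neither differed by more than the spread between mice, and both changed sign under other settings.

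Vcam1 minus the endothelial markers was -0.98, -0.44 and -2.06 in Ang II hearts and -2.05, -1.47 and -1.47 in hearts also given Tec (difference -0.50, exact permutation p of 0.5, two-sided). The overlap of the groups thus remained, through Ang II replicate 3. For Selplg, a leukocyte gene, the same difference was -0.27 (exact permutation p of 0.4, two-sided), and -0.62 with a pseudocount of 0.1. For Selp it was -0.15 (exact permutation p of 0.3, two-sided), and -1.10 with a pseudocount of 0.1. For Sele it was -0.06 with groups that did not overlap (exact permutation p of 0.1, two-sided, the smallest possible), and -0.89 with a pseudocount of 0.1. The share of all genes with separate groups relative to the endothelial markers was not counted. After scaling by the median of ratios, added after seeing the data, the Sele value was -0.24 with overlapping groups (exact permutation p of 0.2, two-sided) and that of Selp -0.31 (exact permutation p of 0.3, two-sided). For Sele against Pecam1 alone it was -0.13, also with overlapping groups (exact permutation p of 0.4, two-sided). These were 6 comparisons, and none could pass an adjustment with 3 mice against 3.

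Selectins and Vcam1 are carried mainly by venous endothelium when it is activated. The 6 venous and endocardial markers, led by Cytl1, summed to 30.6, 57.9 and 18.3 FPKM with Ang II alone and to 15.8, 50.4 and 31.1 FPKM with Tec. The list was highest in Ang II replicate 2, as Vcam1 and the selectins were, and next highest in Ang II + Tec replicate 2, where Cytl1 made up 32.8 of the 50.4 FPKM. Of its 6 genes 5 were tested and 0 called. Plvap, a protein of the diaphragms of vessel pores, measured 10.3, 21.5 and 2.73 FPKM under Ang II alone and 3.07, 9.05 and 3.95 FPKM when Tec was added. The 4 lymphatic endothelial markers, led by Lyve1, summed to 19.6, 23.4 and 19.6 FPKM in Ang II hearts and to 15.5, 19.2 and 23.6 FPKM in hearts also given Tec, with 0 called of 4 tested. The part of these vessel types in the members' values was not tested.

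Leukocyte markers were lower with Tec in level, without passing the adjusted threshold. The 8 pan-leukocyte and macrophage markers, led by Lyz2, summed to 326, 499 and 251 FPKM with Ang II alone and to 173, 170 and 187 FPKM with Tec. Of the 7 tested, 7 were lower with Tec, 0 were called and 7 had an unadjusted p under 0.05 (limma). For all genes tested the shares were 80.0% lower and 16.5% lower at that p. The groups did not overlap for 5 of the 7, against the 18.9% of all genes tested. The median log2 difference of the 7 was -0.86, and -0.67 after scaling by the median of ratios. C1qb, a chain of complement component C1q made by macrophages, measured 68.7, 91.3 and 53.4 FPKM under Ang II alone and 26.2, 32.3 and 34.7 FPKM when Tec was added. The sum was higher in Ang II replicate 3 than in every treated heart, while Ptprc, Adgre1 and Fcgr1, named after their values were seen, overlapped between groups through Ang II replicate 3, as Vcam1 and Selplg did.

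Each member was also set against the mean log2(FPKM + 1) of these 8 leukocyte and macrophage markers, a comparison chosen after seeing the data. Selplg minus these markers was -2.77, -2.74 and -2.63 with Ang II alone and -2.20, -2.32 and -2.58 with Tec. Every treated heart was above every Ang II heart on this scale, opposite to the direction against endothelial markers. The difference was 0.35 (exact permutation p of 0.1, two-sided, the smallest possible), and with a pseudocount of 0.1, which damps a gene near 1 FPKM less, it was 0.13 (exact permutation p of 0.6, two-sided). In FPKM, the treated mean of Selplg was 50.0% of the Ang II mean, and those of the 8 markers were 36.0% to 65.6%, a range that holds the Selplg value. The differences of the other members against these markers were 0.63 for Icam1, 0.61 for Icam2, 0.11 for Vcam1, 0.55 for Sele and 0.47 for Selp. The groups were separate for Icam1 and Selp as well (exact permutation p of 0.1 each, two-sided). The mean of the markers was 3.91, 4.30 and 3.37 with Ang II alone and 3.05, 3.03 and 3.13 with Tec. An unchanged gene therefore comes out higher on this scale, and the share of all genes with separate groups on it was not counted. The differences of Sele and Selp turned to -0.14 and -0.35 with a pseudocount of 0.1. That of Vcam1 turned to -0.12 without Ang II replicate 3 and to -0.04 without Ang II + Tec replicate 2.

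Cells that the selectins are best known for catching left few transcripts. Ly6g, the defining neutrophil marker, was listed at 0 in all 6 hearts, and the 5 neutrophil markers, led by S100a9, summed to 0.480, 3.15 and 0.330 FPKM in Ang II hearts and to 2.91, 1.06 and 0.340 FPKM in hearts also given Tec. S100a9 alone of the 5 was tested and was not called. The 7 T and B cell markers, led by Cd79a, summed to 0.490, 0.460 and 0.280 FPKM with Ang II alone and to 0.590, 0.370 and 0.250 FPKM with Tec, and 0 of 7 reached the limit for testing.

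**Figure D2:**
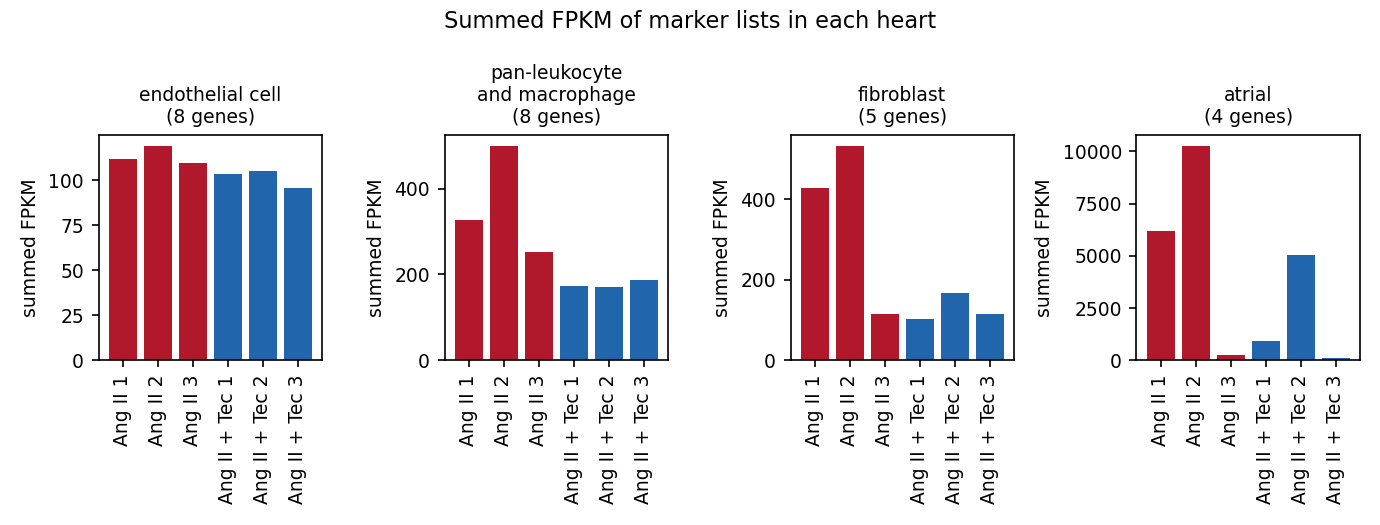
Summed FPKM of 4 marker lists in each heart (bars, linear axis from 0), with Ang II hearts in red and Ang II + Tec hearts in blue. Endothelial markers stay between 95.5 and 119 FPKM, macrophage and leukocyte markers are higher in each Ang II heart than in each treated heart, and fibroblast and atrial markers are low in Ang II replicate 3.

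The integrins and other counter-receptors on leukocytes complete the ligand pairs. Of the 13 genes in this list 6 were tested, 6 were lower with Tec, 0 were called and 2 had an unadjusted p under 0.05 (limma). Among all genes tested, 80.0% were lower and 16.5% were lower at that p. The median log2 difference of the 6 was -0.56, and -0.40 after scaling by the median of ratios. Itgb1, the beta chain shared by VLA-4 and many integrins of other cells, measured 106, 144 and 75.0 FPKM under Ang II alone and 72.0, 80.8 and 69.5 FPKM when Tec was added. Ang II replicates 1 and 2 were above all treated hearts, and Ang II replicate 3 was not. Tln1, which links integrins to actin and activates them, measured 11.1, 11.9 and 7.87 FPKM in Ang II hearts and 8.06, 12.1 and 7.14 FPKM in hearts also given Tec, with full overlap.

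The chains that pair with Icam1 and Icam2 were Itgal and Itgam, joined to Itgb2. Itgal (LFA-1) stayed under 0.5 FPKM in all hearts, with 0.21, 0.19 and 0.09 FPKM with Ang II alone and 0.29, 0.18 and 0.12 FPKM with Tec. Itgam (Mac-1) measured 1.73, 2.04 and 1.03 FPKM under Ang II alone and 0.74, 0.53 and 0.75 FPKM when Tec was added. Itgb2 measured 2.82, 4.21 and 1.91 FPKM in Ang II hearts and 1.52, 1.40 and 1.42 FPKM in hearts also given Tec. The groups did not overlap for Itgam and Itgb2, which were named after their values were seen, while 18.9% of all genes tested were lower with Tec without overlap. The adjusted p was 0.201 for Itgam and 0.221 for Itgb2 (limma). Itga4, the alpha chain of VLA-4 that binds Vcam1, was under 0.5 FPKM in all hearts, as were Itgax, Itgad, Itgb7 and Spn. Of these low genes, Spn was lower and Itgad higher in every treated heart than in every Ang II heart. Itgad measured 0.02, 0.03 and 0.03 FPKM with Ang II alone and 0.08, 0.04 and 0.05 FPKM with Tec. Among genes under the limit for testing with a value above 0, the groups did not overlap, lower with Tec, for 5.17%. With a mean of at least 0.1 FPKM that share was 12.0%, and the share higher with Tec was not counted.

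Selplg binds selectins only once its sugars, and for some selectins its tyrosines, are modified. Of the 10 genes listed for glycosylation and sulfation of selectin ligands, 6 were tested, 6 were lower with Tec and 0 were called. An unadjusted p under 0.05 (limma) was found for 1. The shares over all genes tested were 80.0% lower and 16.5% lower at that p. The median log2 difference of the 6 was -0.24 with FPKM as deposited and -0.04 after scaling by the median of ratios. B4galt1, a galactosyltransferase, measured 26.3, 26.8 and 14.8 FPKM with Ang II alone and 15.7, 18.4 and 16.2 FPKM with Tec. Tpst2, which sulfates tyrosines, measured 11.3, 12.2 and 11.6 FPKM under Ang II alone and 10.5, 10.5 and 10.8 FPKM when Tec was added. The groups were separate for Tpst2 and overlapped for B4galt1, while 18.9% of all genes tested were lower with Tec without overlap. Fut7, the fucosyltransferase of leukocytes that finishes the selectin-binding sugar, was at most 0.11 FPKM.

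Other molecules of the vessel wall yielded 0 calls. Of 16 genes in this list 13 were in the table and 11 were tested. Of the 11, 10 were lower and 1 higher with Tec, and 1 had an unadjusted p under 0.05 (limma). Over all genes tested, 80.0% were lower and 16.5% were lower at that p. The median log2 difference of the list was -0.19, and 0.04 after scaling by the median of ratios. Cd34, a sialomucin of endothelium and of some stromal cells, measured 35.0, 43.5 and 18.8 FPKM in Ang II hearts and 17.5, 18.6 and 16.4 FPKM in hearts also given Tec. The groups did not overlap, though Ang II replicate 3 exceeded the highest treated heart only slightly, and the adjusted p was 0.234 (limma). In this list 1 of the 11 tested was lower without overlap, against 18.9% of all genes tested. Icam5, which lies behind Icam1 on the same chromosome, was at most 0.11 FPKM.

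Signals that switch the inducible members on or off were the next list. Of the 17 inducers and repressors 14 were tested, 10 were lower and 4 higher with Tec, and 0 were called. An unadjusted p under 0.05 (limma) was found for 1. Beside this, 80.0% of all genes tested were lower and 16.5% were lower at that p. The median log2 difference of the 14 was -0.23, and -0.05 after scaling by the median of ratios. Klf2, a shear-induced factor that represses endothelial adhesion molecules, measured 25.8, 24.9 and 25.6 FPKM with Ang II alone and 19.1, 30.1 and 31.6 FPKM with Tec. Nfkbia, which encodes IκBα and is itself switched on by NF-κB, measured 24.9, 21.9 and 22.1 FPKM under Ang II alone and 21.3, 32.1 and 27.9 FPKM when Tec was added. The groups overlapped for either gene. The cytokine genes Tnf, Il1a and Il1b stayed under 0.5 FPKM in all hearts, with at most 0.17 FPKM for Tnf, 0.11 FPKM for Il1a and 0.37 FPKM for Il1b.

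The table itself places all 6 genes in the KEGG pathway of cell adhesion molecules, which was looked up after the members' values were seen. Of its 141 genes 64 were tested, 51 were lower and 13 higher with Tec, 0 were called and 16 had an unadjusted p under 0.05 while lower (limma). The median log2 difference was -0.22, beside -0.17 over all genes tested, of which 80.0% were lower and 16.5% lower at an unadjusted p under 0.05. The shares in the pathway were 79.7% and 25.0%, and their difference from those of all genes was not tested.

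The genes whose profile over the 6 hearts was most like that of a member were found by the root mean square difference of log2(FPKM + 1) after each gene was centred on its mean. For Icam1 they were Mpv17l2 (0.029), Lrfn3 (0.032) and Erlin2 (0.032). For Icam2 they were Gm17201 (0.040), Pde8a (0.052) and Thnsl2 (0.053), and for Vcam1 they were Dclk3 (0.089), Slc1a4 (0.094) and Tmem176a (0.111). For Selplg they were Gm11263 (0.048), Stmn1 (0.050) and Mdfic (0.052). Slc1a4, like Vcam1, was high in Ang II replicates 1 and 2 (2.09 and 3.21 FPKM) and low in the other 4 hearts (0.39 to 1.03 FPKM).

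On the genome, the table gives Icam1 as chr9:21015985-21028817 and Icam2 as chr11:106377656-106388075. Vcam1 is given as chr3:116109949-116129688 and Selplg as chr5:113818536-113830501. Sele is given as chr1:164048234-164057677 and Selp as chr1:164115264-164150026. The start and end of 5 of the 6, all but Selplg, equal those of GENCODE M21 on GRCm38, although the submitters' processing notes name the build mm8. Icam4 begins 555 bases behind the end of Icam1. Antisense genes overlap Icam1 and Selp, and of these Gm47079, Gm16548 and Gm16587 were at most 0.01, 0.09 and 0 FPKM. The part of reads shared with them in the members' values was not tested. Gm43109, which overlaps Vcam1 on the other strand, was not analysed here.

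Promoters are shown for the members that had one in the reference, among them the inducible Icam1 and Sele. RefSeq windows on GRCm38.p6, from 250 bases before to 50 after the RefSeq start, were at hand for these 3 of the 6 genes, and all lie on the plus strand (Icam1 chr9:21015690-21015989, Sele chr1:164047984-164048283, Selp chr1:164115014-164115313). Capitals mark matches to GGANNTTCC, a form of κB site searched on both strands, and to TATAAA on the coding strand. Both were chosen after the sequences were seen.
Icam1: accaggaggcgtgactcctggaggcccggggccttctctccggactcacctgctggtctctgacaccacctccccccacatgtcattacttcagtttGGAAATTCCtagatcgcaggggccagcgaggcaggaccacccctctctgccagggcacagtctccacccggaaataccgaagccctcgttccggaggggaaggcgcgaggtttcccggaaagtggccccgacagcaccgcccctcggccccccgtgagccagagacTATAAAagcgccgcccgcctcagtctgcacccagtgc
Sele: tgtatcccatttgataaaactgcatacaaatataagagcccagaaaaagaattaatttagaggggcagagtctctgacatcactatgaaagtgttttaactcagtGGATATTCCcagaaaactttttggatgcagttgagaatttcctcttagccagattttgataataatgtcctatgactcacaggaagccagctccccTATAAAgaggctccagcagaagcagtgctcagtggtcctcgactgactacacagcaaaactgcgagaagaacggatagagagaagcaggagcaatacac
Selp: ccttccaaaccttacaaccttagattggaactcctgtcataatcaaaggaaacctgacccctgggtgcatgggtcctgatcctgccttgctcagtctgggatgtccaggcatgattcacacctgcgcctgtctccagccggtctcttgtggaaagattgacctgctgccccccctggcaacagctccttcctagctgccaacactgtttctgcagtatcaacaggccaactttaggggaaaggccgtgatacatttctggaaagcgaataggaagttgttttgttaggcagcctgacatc

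The NF-κB consensus of 10 letters, searched on both strands, had no match in the 3 windows, while 4.51% of all 32851 RefSeq promoters of 300 bases hold it. GGANNTTCC was found in Icam1 as GGAAATTCC at bases 98 to 106 of the window, a match on either strand, and in Sele as GGATATTCC at bases 106 to 114. It is held by 4.26% of all promoters. TATAAA began at base 264 in Icam1, after the RefSeq start, and at base 202 in Sele, before that start. The start of Icam1 given above, 21015985, differs from the RefSeq start and lies near the end of the window. TATAAA is before that position, so its place in Icam1 depends on the start that is used. For Sele the starts agree. Of all promoters, 8.32% hold it. Selp had none of the 3 motifs. These matches are letters in a window and not measured sites. Of the genes that hold them, Icam1 had overlapping groups and Sele had separate groups, a difference that was not tested.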

How the data were processed

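Total RNA of 6 hearts was poly(A)-selected and sequenced as paired ends. Per the labels and methods, the authors trimmed reads with Cutadapt and deposited FPKM per gene; the submitters' processing notes name Bowtie 0.12.2, HISAT2 2.0, StringTie 1.3.0 and the build mm8, without their roles. The methods state a nominal depth; the files give it only relative to the other libraries (0.887 to 1.17), from the lowest values of genes with 1 transcript, and fragments behind low FPKM are estimates. From the FPKM, log2(FPKM + 1) entered limma 3.58.1 (R 4.3.3; lmFit, eBayes with trend, Benjamini-Hochberg), after tests on simulated data, for genes with 0.5 FPKM or more in at least 3 libraries. Alternatives changed pseudocount, filter, scaling, block, trend and weights, and left out each library. Genes under this limit were compared by two-sided exact permutation tests (scipy 1.17.1). Named genes were the 6 members, the highest or the 2 highest of each list, low list genes and the 3 nearest profiles. Itgam, Itgb2, Ptprc, Adgre1 and Fcgr1 were named after their values were seen. Members and lists were chosen with earlier results of these data known. Madcam1, Glycam1, Cd99, protein sequences and 3 promoters were not analysed here.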

Additional observations from a re-analysis of the deposited data

How the results depend on the processing

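In the fit of all genes 24 were called. The number was 3 without a filter, 3542 with arrayWeights, 7757 with arrayWeights gene by gene and 13 with atrial transcripts as a block, the last 2 settings chosen after seeing the data. Leaving out a library gave 2 to 3776 calls, the higher without Ang II replicate 3. The causes were not tested. With the replicate block 23 genes and 0 members were called. Deviations of libraries with the same number correlated at -0.04, 0.43 and 0.38, and those with different numbers at -0.435 to 0.226. Not every library correlated best with its own number. With 3 libraries in each group these correlations cannot show whether the numbers pair the mice, and the labels name no pairing.

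The log2 difference turned to 0.0237 for Icam1 and 0.0397 for Icam2 under quantile normalization, and to 0.0237 for Icam2 under the median of ratios. Icam1 (-0.37), Vcam1 (-0.935) and Selplg (-0.52) were called with arrayWeights gene by gene, and Selplg (-0.77) with arrayWeights. Leaving out a library gave -1.16 to -0.28 for Vcam1 and -0.64 to -0.23 for Selplg, both called without Ang II replicate 3; adjusted p ranged over all alternatives from 0.00715 to 0.795 for Vcam1 and from 0.00969 to 0.685 for Selplg (limma). Sele and Selp kept their direction under 10 of 10 alternatives each; without a filter their adjusted p were 0.373 and 0.404 (limma). Quantile normalization, block, trend and weights were run on genes past the filter and gave them no value, nor did the filter of 1 FPKM for Selplg.

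Relative to endothelial markers, Icam1 was at -0.054 against Pecam1 alone, at -0.0315 with a pseudocount of 0.1 and at -0.0401 under the median of ratios, added after seeing the data; leaving out a library gave -0.13 to 0.11 for Icam1 and -0.0793 to 0.0979 for Icam2. Vcam1, Sele, Selp and Selplg stayed lower under 9 of 9 alternatives each, and leaving out a library gave -0.95 to -0.14 for Vcam1, -0.0846 to -0.0375 for Sele, -0.23 to -0.0795 for Selp and -0.44 to -0.096 for Selplg. Relative to leukocyte markers, Sele was at -0.1368 and Selp at -0.3484 with a pseudocount of 0.1, and leaving out a library gave -0.1243 to 0.2924 for Vcam1. The cause of the reversals was not tested. Depth limits Sele and Selp, with at most 30.7 estimated fragments behind a value.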
